A study of Mus musculus with 12 samples.

Results

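The genes described here are 10 transcripts through which cytotoxic lymphocytes kill their targets: Gzma, Gzmb, Prf1, Nkg7, Klrk1, Klrd1, Ncr1, Hcst, Fasl and Ifng. They were taken by name from the 17875 genes of the deposited tables and were chosen for their known function, with earlier results of these data in view. All 10 were found, and all 10 were among the 13453 genes (75.3%) that passed the filter on low counts and were tested.

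Natural killer (NK) cells and CD8 T cells carry granules that hold perforin and granzymes. On contact with a target, perforin opens the target's membrane and granzymes enter and start its death, while Fas ligand can start death from the surface and interferon-gamma acts on the surrounding cells. Which targets are attacked is set by surface receptors such as NKG2D, CD94 and NKp46, and the activating ones need small adaptor proteins to pass on a signal. In tumours these transcripts are widely used as a readout of lymphocyte killing capacity.

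RNA was sequenced from bulk subcutaneous colorectal tumour tissue of mice in 4 groups of 3 libraries. Control tumours were labelled only as the control group, and stress tumours grew under chronic stress. Low-dose and high-dose tumours grew under chronic stress with the lower or the higher dose of Xiaochaihu decoction (Xiao-chai-hu-tang, abbreviated XCHT in the labels), a traditional Chinese herbal mixture. All groups carried the subcutaneous tumour, and the 3 groups other than control shared the stress. The mouse strain, sex, age, grafted cell line and doses are not given in the sources used here. Nothing in the labels says whether replicates came from separate animals, so the spread behind each p-value is that between libraries and may be technical.

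Total counts were 16734741 to 17950195 per library. Transcripts of skeletal muscle were abundant in control replicate 1, low dose replicate 3 and high dose replicate 2. Of 12 epithelial markers, 11 were in the tables and only 3 reached the filter, and Krt8, Krt18, Krt20, Cldn7 and Epcam had at most 14 counts in any library, whereas Sox9, Cdh1 and Lgals4 were detected throughout. So the tissue was labelled colorectal cancer, but defining keratins of that epithelium were at or near 0. Leukocyte transcripts were present in every library, with Ptprc (CD45) at 585 to 1824 counts. In bulk tissue, fewer lymphocytes and less RNA per lymphocyte cannot be told apart.

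Promoter sequence is shown for the 4 members whose values carry most of what follows: Hcst, the member with the smallest p under stress, Fasl, the next, and Gzmb and Prf1, the core pair of the granule. Each is a stretch upstream of the gene's RefSeq start, 5′ to 3′ on the gene's own strand, from RefSeq (GRCm38.p6). Hcst lies on the minus strand (chr7:30419855-30420104), as do Fasl (chr1:161788496-161788745) and Gzmb (chr14:56262335-56262584). Prf1 lies on the plus strand (chr10:61297586-61297750), and its RefSeq gene starts at 61297751. The 250-base window taken for Prf1 ran to 61297835, inside the gene. It was therefore shortened by 85 bases to the 165 outside any annotated Prf1 transcript. Capitals mark exact matches, on either strand, to a short core of 3 families of lymphocyte transcription factors: AGGAAG (or CTTCCT) for ETS, TGTGGT (or ACCACA) for RUNX and TCACAC (or GTGTGA) for T-box factors.
Hcst: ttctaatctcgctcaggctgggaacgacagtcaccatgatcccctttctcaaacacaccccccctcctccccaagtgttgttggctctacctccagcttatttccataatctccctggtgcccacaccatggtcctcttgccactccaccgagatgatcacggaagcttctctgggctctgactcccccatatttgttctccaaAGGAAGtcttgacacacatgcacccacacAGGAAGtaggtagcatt
Fasl: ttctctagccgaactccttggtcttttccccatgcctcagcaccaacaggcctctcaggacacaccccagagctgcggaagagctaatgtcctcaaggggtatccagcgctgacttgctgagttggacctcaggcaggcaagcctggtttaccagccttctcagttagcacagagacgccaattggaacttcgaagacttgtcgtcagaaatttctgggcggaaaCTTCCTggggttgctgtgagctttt
Gzmb: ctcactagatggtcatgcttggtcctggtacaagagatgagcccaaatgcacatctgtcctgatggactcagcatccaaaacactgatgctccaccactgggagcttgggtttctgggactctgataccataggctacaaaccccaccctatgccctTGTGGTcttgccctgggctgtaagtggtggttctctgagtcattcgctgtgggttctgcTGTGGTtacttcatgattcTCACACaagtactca
Prf1: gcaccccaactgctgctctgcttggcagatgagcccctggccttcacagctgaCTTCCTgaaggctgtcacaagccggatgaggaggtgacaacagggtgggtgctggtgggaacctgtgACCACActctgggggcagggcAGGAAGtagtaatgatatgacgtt

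Positions are counted back from the base after each gene's 250-base window, called the start here. For Hcst, Fasl and Gzmb that base is the RefSeq gene start, and for Prf1 it lies 85 bases inside the gene. Hcst held 2 ETS matches, at 46 and 17 bases before the start, and Fasl 1, at 25. In Gzmb there were RUNX matches at 93 and 34 bases and a T-box match at 15. Prf1 held ETS matches at 197 and 109 bases and a RUNX match at 130, each 85 bases more than if counted from its RefSeq gene start. Of the 10 genes, 9 were in the promoter table, and among their 250-base windows 4 held the ETS letters, 6 the RUNX letters and 3 the T-box letters. Over all 32851 windows of that length in the table the shares were 29.5%, 14.0% and 12.3%. A match to such short letters is a description of the sequence and not evidence of a bound factor.

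Across the 12 libraries the members stood at low to moderate levels. In TPM, a unit that corrects for gene length and so allows genes to be compared, the order of the means over all libraries was Gzmb (24.1), Nkg7 (20.4), Prf1 (10.7), Klrd1 (10), Gzma (7.33), Klrk1 (7.18), Hcst (5.34), Ifng (2.32), Ncr1 (1.58) and Fasl (1.29). The ranges of neighbours in this order overlapped. Even the first and the third, Gzmb and Prf1, had overlapping ranges, from 7.97 to 43.0 and from 3.82 to 21.8 TPM. Klrk1 needs care on this scale, because the length implied by its deposited counts and FPKM values ran from 1268 to 1977 bases between libraries, so its TPM moved with the mix of isoforms that the authors' software assigned. For Hcst the implied length was only 160 to 182 bases, and its 5.34 TPM came from a median of 9.5 counts per library.

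Comparisons between groups below use CPM, read counts scaled to library size and composition, except where deposited counts or summed TPM are given. Fold changes come from edgeR's quasi-likelihood test over all 13453 genes and 12 libraries, with Benjamini-Hochberg adjustment. A gene was called at an adjusted p under 0.05. No member was called in any of the 4 comparisons. Nor was any other gene, so the background share called was 0% in each comparison. Members called also numbered 0 by DESeq2, and 0 under each of the 52 settings tried. At an unadjusted p under 0.05 the members numbered 2 of 10 for stress against control (2.85% of all genes). Hcst, 1 of these 2, passed the filter only through groups where it is higher. The members numbered 0 of 10 for low dose against stress (13.4% of all genes), high dose against stress (1.42%) and high dose against low dose (6.39%). In counts simulated for stress against control over the 13453 genes, the test called 74.1% of genes changed by 2-fold and 22.6% of those changed by 1.5-fold. Those genes were drawn from all that were tested, where the median standard error (SE) of the log2 fold change was 0.164. The members spread more widely than most under stress, as shown next, with SEs from 0.393 for Gzma to 0.592 for Fasl. The simulation therefore does not show that a 2-fold change in a member would be called.

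Perforin and granzymes are the killing machinery itself. Prf1, the pore-forming protein, stood at 8.55, 11.3 and 9.49 CPM in the control libraries and at 27.1, 25.4 and 4.70 CPM in the stress libraries. Stress replicates 1 and 2 were above every control and stress replicate 3 was below every control, so the groups overlapped. Its stress-to-control log2 fold change was 0.96 (SE 0.52, adjusted p = 1 by edgeR). Low-dose tumours had 14.3, 18.2 and 8.67 CPM and high-dose tumours 11, 9.47 and 15.9 CPM, all inside the range that the stress group spanned.

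Gzmb, the granzyme that cleaves caspases, showed the same shape. Controls stood at 12.6, 16.4 and 16.9 CPM, and the stress libraries at 29.3, 29.0 and 5.56 CPM. The low-dose libraries were at 10.2, 14.7 and 19.6 CPM and the high-dose libraries at 12.2, 16.0 and 22.3 CPM. Thus the stress group held both the 2 highest and the lowest Gzmb values of the series, with a mean of 21.3 ± 13.6 CPM (SD, n = 3). The log2 fold change was 0.48 (SE 0.50) for stress against control, -0.52 (SE 0.50) for low dose against stress and -0.34 (SE 0.50) for high dose against stress, none clearly larger than its own error.

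Gzma, a granzyme with a different cleavage specificity that NK cells carry abundantly, was lower and flatter. It stood at 2.34 ± 0.414 CPM in controls, 2.81 ± 1.31 under stress, 2.06 ± 0.947 at the low dose and 2.89 ± 0.740 at the high dose (SD, n = 3 each). In the stress group only replicate 1, at 4.32 CPM, lay above all controls. Nkg7, a granule membrane protein needed for efficient degranulation, had 6.21, 5.06 and 4.80 CPM in controls and 11.3, 6.53 and 3.21 CPM under stress. Here the 3 stress libraries straddled the controls, with 1 far above, 1 just above and 1 below (log2 fold change 0.39, SE 0.40).

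**Figure D1:**
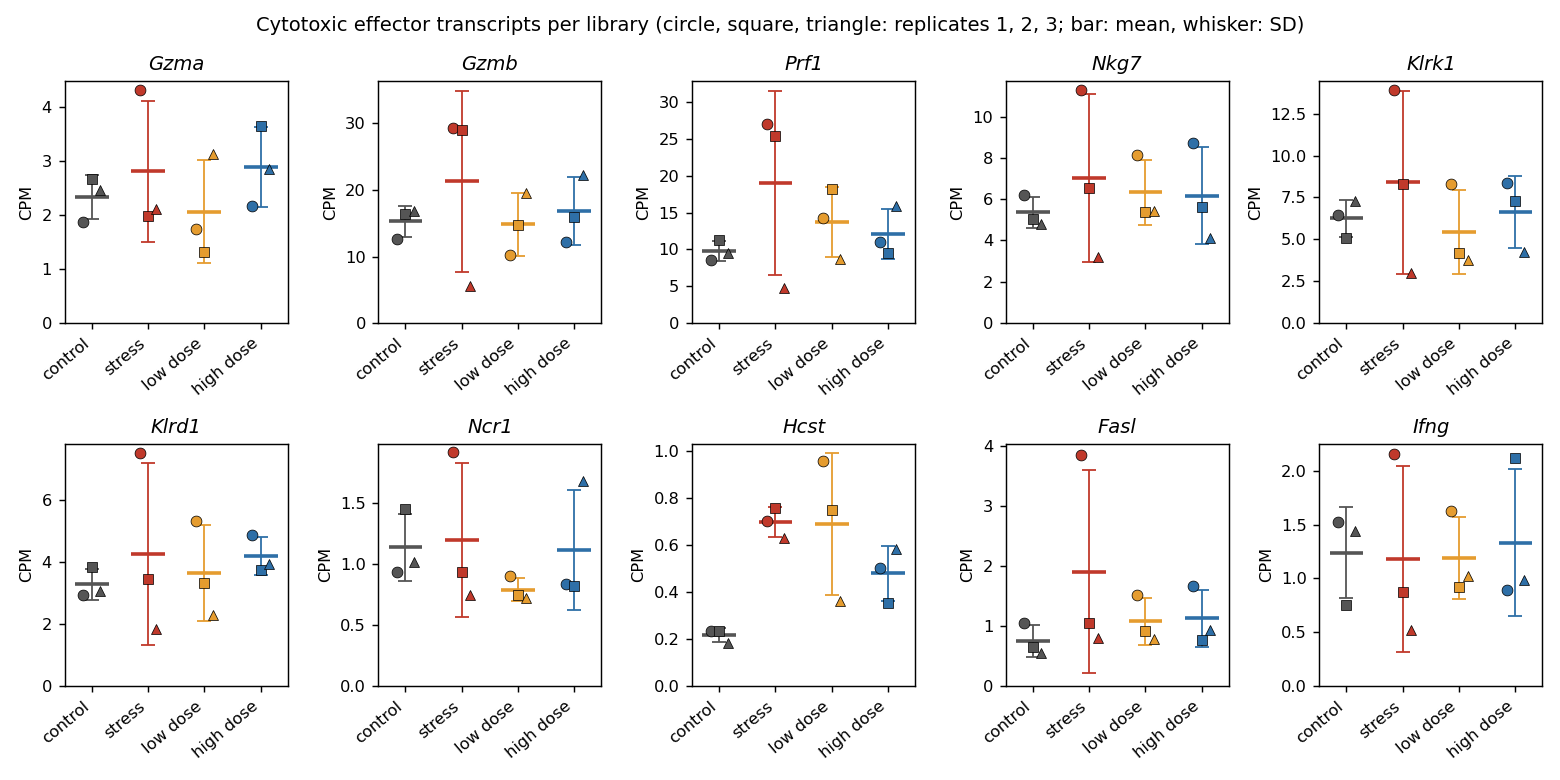
CPM (vertical axis, from 0) of the 10 genes in each library, by group; circles, squares and triangles are replicates 1, 2 and 3, horizontal bars are group means and whiskers are SDs (n = 3). For Prf1 the controls sit between 8.55 and 11.3 CPM while the stress libraries are at 27.1, 25.4 and 4.70, and Hcst is the panel in which the stress and control points do not overlap.

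The receptors that recognise targets came next. Klrk1 encodes NKG2D, which binds stress-induced ligands on tumour cells. It stood at 6.44, 5.06 and 7.27 CPM in controls and at 13.9, 8.33 and 2.98 CPM under stress, again with replicate 1 highest and replicate 3 lowest of the series. Its log2 fold change was 0.43 (SE 0.48) for stress against control and -0.63 (SE 0.48) for low dose against stress. Klrd1 encodes CD94, the partner of the NKG2 receptors that read a nonclassical MHC molecule, and had 3.28 ± 0.490 CPM in controls and 4.27 ± 2.93 under stress (SD, n = 3 each), from 7.52 in replicate 1 to 1.83 in replicate 3. Ncr1 encodes NKp46, the receptor most restricted to NK cells among the members. With 12 to 33 counts per library it was close to the filter, and its groups overlapped in every comparison (log2 fold change 0.08, SE 0.43, for stress against control).

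Hcst encodes DAP10, the adaptor through which NKG2D signals. Its deposited counts were 4, 4 and 3 in controls, 12, 13 and 11 under stress, 17, 13 and 6 at the low dose and 9, 6 and 10 at the high dose. The 3 stress libraries lay above the 3 controls with no overlap, and so did each of the 6 decoction libraries, whose counts of 6 to 17 all exceeded the control maximum of 4. It was the only member of the 10 whose stress and control groups did not overlap with stress higher, against a background of 7.08% of all genes tested higher without overlap. No control library reached the filter's minimum for Hcst, so its separation from controls is a description only. Mean levels were 0.216 ± 0.0307 CPM in controls and 0.696 ± 0.0639 CPM under stress (SD, n = 3 each), a log2 fold change of 1.66 (SE 0.46, adjusted p = 1 by edgeR).

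Its unadjusted p ranked 13 of the 13453 genes in this comparison. That rank is a description and no support, because Hcst passed the filter only through groups where it is higher. In stress replicate 3, the lowest library for 6 of the 10 genes, Hcst had 11 counts, against 12 and 13 in stress replicates 1 and 2. Counting error at such counts is too wide to read this as evenness. Leaving out any 1 control or stress library gave log2 fold changes for stress against control from 1.55 to 1.72. High dose against stress was -0.53 (SE 0.42), with groups that did not overlap (background 3.32% of genes lower without overlap), and low dose against stress was -0.01 (SE 0.41).

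The counts behind Hcst are small. The exact 95% Poisson interval, which covers counting error only, was 0.619 to 8.77 for the control library with 3 counts and 6.92 to 22.2 for the stress library with 13. Only 6 of the 12 libraries, none of them controls, reached the filter's minimum of about 10 counts. The gene therefore passed the filter through the groups where it is higher, and a difference from controls was built into its passing. Its locus (chr7:30417712-30419854) lies 126 bases from Tyrobp, the gene of the adaptor DAP12, which had 421 to 803 counts per library. Tyrobp stood at 28.5 ± 0.359 CPM in controls and 32.8 ± 7.76 CPM under stress (SD, n = 3 each), and whether reads of one were counted for the other was not tested.

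Fasl, the ligand that triggers the death receptor Fas, had 18, 11 and 9 counts in controls and 66, 18 and 14 under stress. A single library, stress replicate 1, carried the difference, and the other 2 stress libraries lay within or at the top of the control range. The log2 fold change was 1.34 (SE 0.59, adjusted p = 1 by edgeR) and 0.31 without that library. Low-dose tumours had 27, 16 and 13 counts and high-dose tumours 30, 13 and 16. Fas itself stood at 58 to 91 counts in controls and at 118, 114 and 44 in the stress libraries, so the receptor's transcript was also lowest in stress replicate 3.

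Ifng, the cytokine that induces antigen presentation and macrophage activation, had 26, 13 and 24 counts in controls, 37, 15 and 9 under stress, 29, 16 and 17 at the low dose and 16, 36 and 17 at the high dose. It was the only one of the 10 with a negative stress-to-control estimate, -0.07 (SE 0.54). An annotated transcript, Gm49751, overlaps Ifng on the same strand and holds 3.68% of the 150-base windows of its longest transcript, so a small share of its reads could be assigned to either. None of the other 9 genes shared such a window with another gene.

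Side by side, 9 of the 10 genes were higher under stress than in controls by any amount, where 51.7% of all genes were, and their median log2 fold change was 0.41 against 0.01 over all genes tested. The 2 at an unadjusted p under 0.05 were Fasl and Hcst, and Hcst passed the filter only through groups where it is higher. Against stress, 9 of 10 were lower at the low dose (background 50.1%), with a median of -0.46, and 8 of 10 at the high dose (background 51.1%), with a median of -0.26. High-dose tumours exceeded low-dose tumours in 7 of 10 (background 50.8%), with a median of 0.17. The first 3 of these comparisons share the stress libraries, so a high or low stress group moves all of them at once, and they are not separate evidence.

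**Figure D2:**
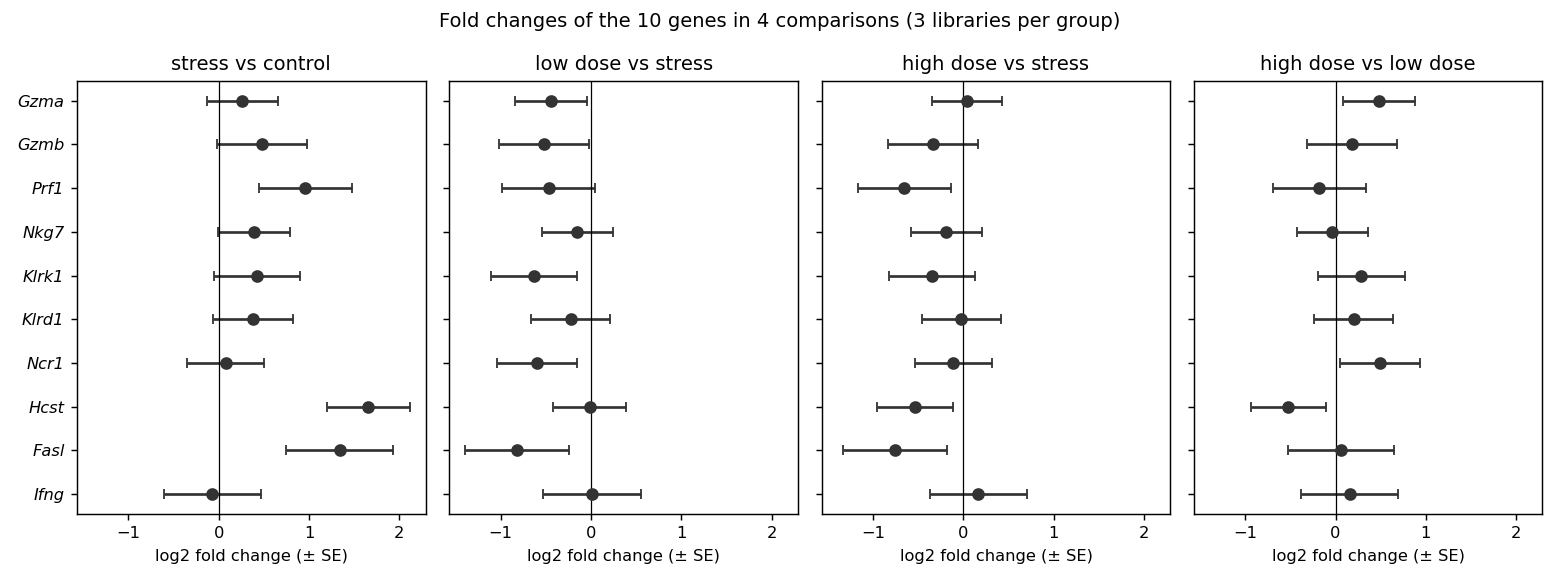
Log2 fold change (horizontal axis) with its standard error for each of the 10 genes (rows) in the 4 comparisons (panels), from edgeR with 3 libraries per group. Hcst (1.66) and Fasl (1.34) stand farthest from 0 for stress against control, and the error bars of most other genes reach or come close to 0.

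Single stress libraries decided these summaries. Stress replicate 1 was the highest of all 12 libraries for 9 of the 10 genes and above the highest control for all 10, with a median ratio to the control mean of 2.17. Stress replicate 3 was below the lowest control for 7 of 10, with a median ratio of 0.579, and stress replicate 2 was above the highest control for 5, with a median ratio of 1.28. Without stress replicate 1, the members' median for stress against control was -0.14 with 4 of 10 higher. Without stress replicate 3 it was 0.78 with 10 of 10 higher.

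The same held for the decoction groups. Low dose against stress had a median of -0.0010 without stress replicate 1 and -0.71 without stress replicate 3. High dose against stress turned from -0.26 to 0.31 without stress replicate 1, with 7 of 10 higher, and was -0.56 without stress replicate 3. Of the 10 genes, only Gzmb, Prf1, Hcst and Fasl stayed higher under stress whichever control or stress library was left out, in ranges of 0.18 to 0.93, 0.62 to 1.42, 1.55 to 1.72 and 0.31 to 1.70. For Hcst this is a description and no support, because it passed the filter only through groups where it is higher.

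**Figure D3:**
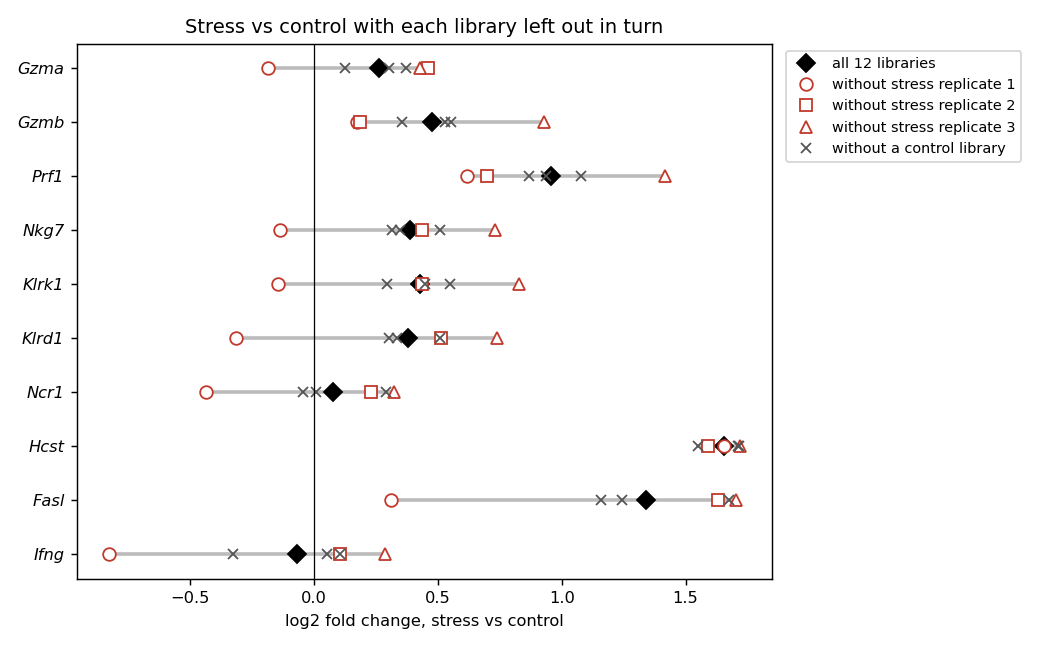
Log2 fold change of stress against control (horizontal axis) for each gene (rows) with all 12 libraries (diamonds) and with 1 stress library (open red symbols) or 1 control library (crosses) left out. Without stress replicate 1 (open circles) the values of Gzma, Nkg7, Klrk1, Klrd1, Ncr1 and Ifng lie below 0, while Hcst stays between 1.55 and 1.72. Hcst passed the filter only through groups where it is higher, so its range is a description.

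What marked the stress group for these genes was therefore spread. The coefficient of variation between its 3 libraries had a median of 64.5% over the members, against 16.6% in controls, 35.7% at the low dose and 31.4% at the high dose. Over all genes tested the medians were 11.2%, 7.09%, 18.8% and 12.1%. For 9 of the 10 members the stress group had the largest coefficient of variation of the 4 groups, which was so for 20.4% of all genes. Hcst was the exception, with 9.18% under stress, but at 11 to 13 counts per library counting error is too wide to read this as evenness. In the high-dose group, summed TPM of the 10 genes ran from 85.3 to 95.4, and in controls from 75.0 to 81.8, whereas in the stress group it ran from 46.1 to 171. Klrk1, whose TPM moved with the mix of isoforms assigned, is part of these sums.

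Within the stress group, markers of T cells and of leukocytes in general were ordered like the effector genes. The score of 15 T cell genes, the mean of their centred log2 CPM, was 1.05, 0.161 and -0.700 in stress replicates 1, 2 and 3, where the 10 effector genes scored 0.994, 0.230 and -0.719. Summed TPM of the T cell genes ran from 82.2 to 98.2 in controls, 57.2 to 185 under stress, 64.2 to 122 at the low dose and 69.3 to 118 at the high dose. In the high-dose group the order was not shared: the T cell scores were 0.351, -0.139 and -0.580 where the effector genes scored 0.0888, 0.032 and 0.0800. Over all 12 libraries the 2 scores had r = 0.833 and Spearman's rho = 0.622, and r = 0.314 without stress replicates 1 and 3, so the relation rested on those libraries. For 10 pan-leukocyte genes the scores in the stress libraries were 0.424, 0.068 and -0.459. The 19 other NK receptors and adaptors gave 0.789, 0.163 and -0.439. Cd8b1, the CD8 beta chain, had 164, 77 and 28 counts in the stress libraries and 61, 41 and 48 in controls. Of the T cell list 14 of 15 were higher under stress, with a median of 0.34, and of the pan-leukocyte list 9 of 10, with a median of 0.11, and 0 of either were called.

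**Figure D4:**
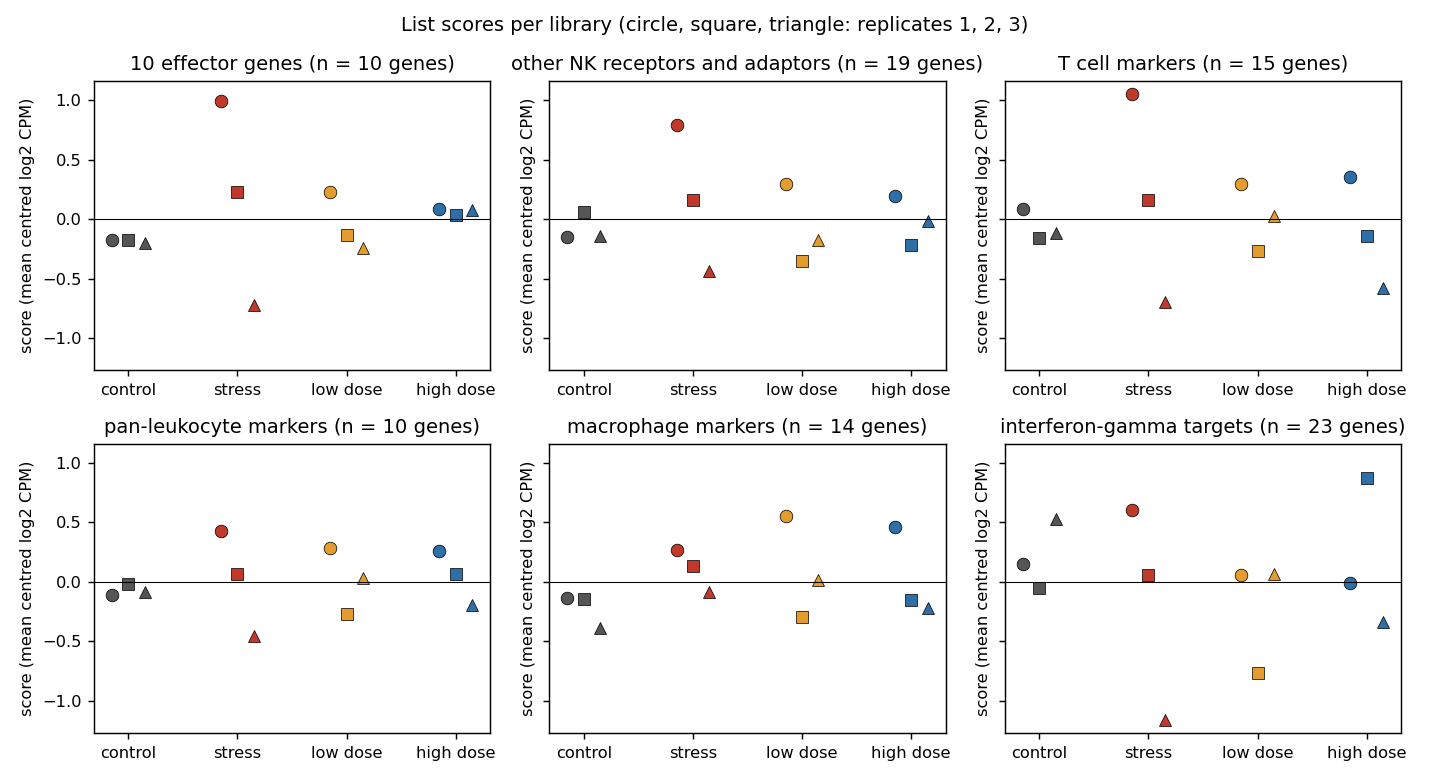
Score of a gene list in each library (vertical axis, mean over its genes of log2 CPM centred on the 12 libraries) for the 10 effector genes and 5 other lists; circles, squares and triangles are replicates 1, 2 and 3. Stress replicate 1 scores 0.994 for the effector genes and 1.05 for T cell markers, and stress replicate 3 scores -0.719 and -0.700.

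Within the 10 genes, library-to-library profiles were only loosely shared. Over the 12 libraries the 45 pairs had a median Pearson r of 0.45, from -0.26 to 0.87, with 41 above 0. To ask which wider programme each gene followed, 60 relations were computed between the 10 genes and 6 reference profiles over the 12 libraries, with permutation tests (100000 resamples, two-sided) adjusted over the 60, and 13 had an adjusted p under 0.05 by Pearson's r. All 12 libraries share the group structure, so such relations mix differences between groups with those between replicates. The genes and lists were chosen with earlier results of these data known, so these p-values are descriptions and no support.

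Nkg7 followed the T cell genes most closely, with r = 0.961 and Spearman's rho = 0.937 (permutation p = 1e-05, the smallest possible, and 6e-05, adjusted p = 0.0006 and 0.0036). The relation remained without the 2 libraries farthest out in T cell score (r = 0.923). Nkg7 also followed the pan-leukocyte score, with r = 0.922 and rho = 0.867 (permutation p = 2e-05 and 0.00058, adjusted p = 0.0006 and 0.0117). With the macrophage score r was 0.726 (permutation p = 0.00736, adjusted p = 0.0401). Klrk1 was similar, with r = 0.872 and rho = 0.839 for the T cell genes (permutation p = 0.00017 and 0.00102, adjusted p = 0.0034 and 0.0122), and r = 0.685 without the 2 farthest. Its relation to the pan-leukocyte score was as close, with r = 0.86 and rho = 0.853 (permutation p = 0.0006 and 0.00078, adjusted p = 0.006 and 0.0117). Klrk1 further had r = 0.744 with the interferon-gamma targets (adjusted permutation p = 0.0357). Klrd1 had r = 0.747 with the T cell score and 0.819 with the pan-leukocyte score (adjusted permutation p = 0.0401 and 0.0121). Fasl had r = 0.813, 0.698 and 0.713 with the T cell, pan-leukocyte and macrophage scores (adjusted permutation p = 0.02, 0.0494 and 0.0418). By Spearman's rho each of these further relations had an adjusted permutation p of at least 0.0799. Whether any of these genes follows T cells more than leukocytes in general was not tested.

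For Prf1 the highest r was with another reference profile. Its r with the T cell score was 0.564 and fell to -0.0958 without the 2 farthest libraries, so that relation rested on them (rho = 0.322, permutation p = 0.0544 and 0.309, adjusted p = 0.161 and 0.546). With Gzmf, a granzyme of the cluster that mice carry beside Gzmb, r was 0.837 and rho 0.86 (permutation p = 0.00052 and 0.00061, adjusted p = 0.006 and 0.0117), and r = 0.822 without the 2 farthest. Gzmb, which lies in the same cluster, had r = 0.489 with Gzmf and r = 0.452 with the T cell score. Whether Prf1 or Gzmb follows Gzmf more than the T cell score was not tested. Ifng was closest to the score of 23 interferon-gamma target genes, at r = 0.835 and rho = 0.783 (permutation p = 0.00058 and 0.00376, adjusted p = 0.006 and 0.0376), and r = 0.793 without the 2 farthest. Hcst had r = 0.178 with the T cell score, 0.571 with Gzmf and 0.558 with the macrophage score.

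Granzymes C to G are lymphocyte granule proteases with no human counterpart of the same name. Gzmc ranged 5.35-fold over the 12 libraries, from 8.84 to 47.3 CPM, within the 2.66-fold to 7.12-fold ranges of the 10 genes, and Gzmd to Gzmg ranged 30.5-fold or more. Gzmg ran from 0.412 CPM in high dose replicate 2 to 63.2 CPM in stress replicate 2, a 154-fold range, and Gzmd from 0.999 to 60.0 CPM (60.1-fold) between the same libraries. Gzmf had 98, 303 and 59 counts in controls, 962, 1168 and 88 under stress, 181, 561 and 39 at the low dose and 250, 38 and 551 at the high dose. In each group at least 1 library stood several-fold above another, with stress replicates 1 and 2 on top. Stress-to-control log2 fold changes were 2.39 (SE 1.26) for Gzmd, 2.11 (SE 1.08) for Gzme and 2.26 (SE 1.19) for Gzmf, each with adjusted p = 1 by edgeR, and stayed at or above 1.72 whichever library was left out.

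**Figure D5:**
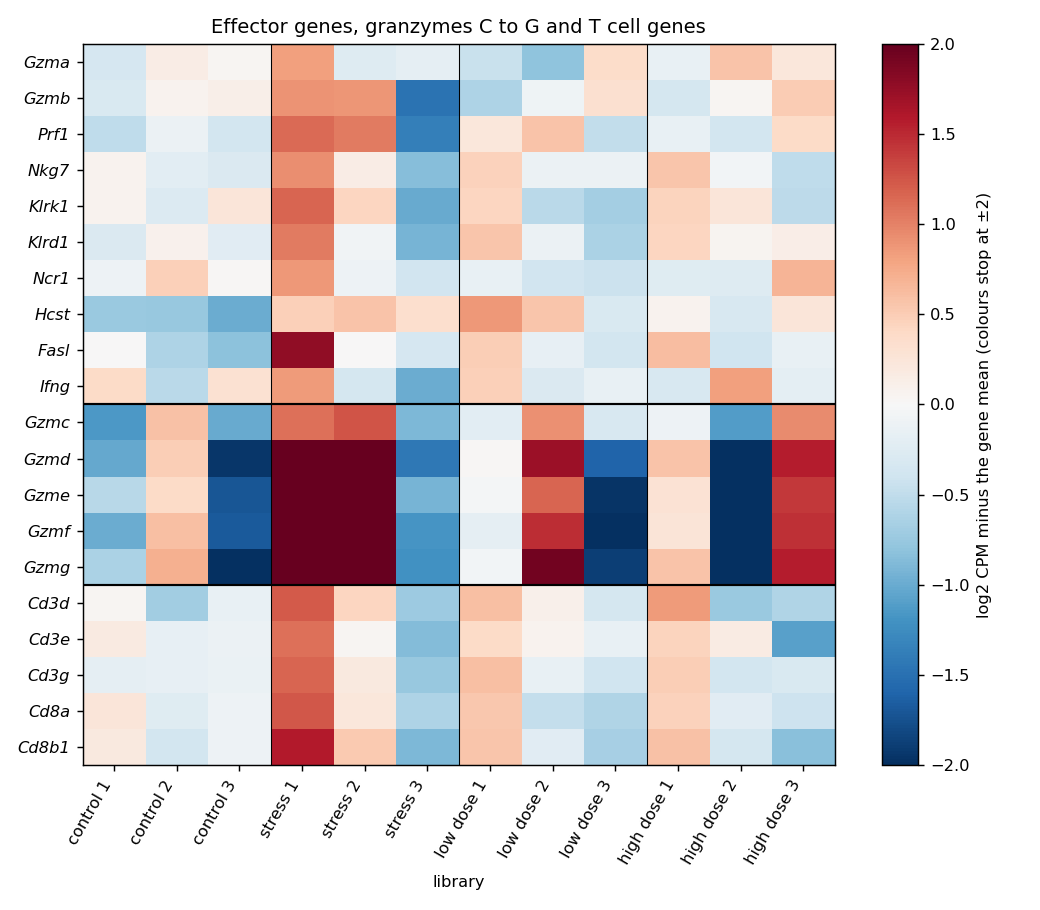
Log2 CPM of each gene minus its mean over the 12 libraries (colour, stopping at 2 either side of 0) for the 10 effector genes (top), granzymes C to G (middle) and 5 T cell genes (bottom), with libraries as columns in group order. Stress replicates 1 and 2 are both high for Prf1, Gzmb and granzymes C to G, whereas for Nkg7, Klrk1 and the T cell genes stress replicate 1 stands above stress replicate 2, and high dose replicate 2 is lowest for Gzmd to Gzmg.

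The wider cytotoxic pathway was counted over lists drawn up by function, with earlier results of these data known. Of 18 other granule genes tested (of 20 listed), 12 were higher and 6 lower under stress, with a median of 0.12 and 0 called. Besides the granzymes they included Cst7, a cathepsin inhibitor of cytotoxic granules, with 29, 36 and 27 counts in controls and 75, 61 and 18 under stress. Among 19 other NK receptors and adaptors tested, 17 were higher and 2 lower, with a median of 0.44 and 0 called. Klrg1, a receptor of differentiated NK and T cells, had the smallest p of them, at 0.531 ± 0.0679 CPM in controls and 1.28 ± 0.705 under stress (SD, n = 3 each), a log2 fold change of 1.26 (SE 0.49, adjusted p = 1 by edgeR).

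Regulators and cytokine receptors of these cells were evenly divided, 9 higher and 9 lower of 18, with a median of 0.02 and 0 called. Il2rb, the chain that takes up interleukin 2 and interleukin 15 signals, had 311, 343 and 263 counts in controls and 705, 525 and 228 under stress (log2 fold change 0.65, SE 0.35). Its pattern was like that of Prf1, with the same library falling below the controls. Of 7 cytokines that activate cytotoxic cells only 4 were tested, all 4 with estimates above 0, a median of 0.21 and 0 called. Il15 stood at 142, 144 and 170 counts in controls and 153, 187 and 134 under stress, and Il2, Il12a and Il21 had at most 2 counts in any library. Among ligands and death receptors on target cells 8 were higher and 4 lower of 12, with a median of 0.05 and 0 called.

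At the low dose, 15 of the 19 other NK receptors and adaptors were lower than under stress, with a median of -0.36 and 0 called, and 3 of the 19 (1 higher, 2 lower) had an unadjusted p under 0.05, a level reached by 13.4% of all genes. Cd244a, the SLAM-family receptor 2B4, stood at 2.5 ± 1.23 CPM against 4.86 ± 1.78, a log2 fold change of -0.95 (SE 0.37, adjusted p = 0.329 by edgeR). Slamf7 stood at 5.56 ± 1.57 CPM against 9.40 ± 4.23 (-0.75, SE 0.32, adjusted p = 0.349 by edgeR). Klra4, listed as the activating receptor Ly49D, went the other way, at 76.1 ± 26.8 against 43.7 ± 2.29 CPM (0.80, SE 0.21, adjusted p = 0.296 by edgeR; SD, n = 3 in each case). Without low dose replicate 1, Klra4 had an adjusted p of 0.0202 and Cd244a of 0.0423 by edgeR. Leaving out that library called more genes of all kinds than leaving out any other in this comparison, as counted below. These values therefore do not set the 2 receptors apart from other genes. Klra4 belongs to a family of near-identical Ly49 genes, and its level, a median of 106 TPM, was far above that of any of the 10 effector genes, so its reads are reported as uncertain.

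At the high dose against stress, 14 of the 19 were lower, with a median of -0.28, and 0 were called. Gzmf was at 16.0 ± 15.0 CPM against 43.1 ± 33.5 (SD, n = 3 each), a log2 fold change of -1.42 (SE 1.14). Between the doses, 7 of 19 were higher at the high dose, and Klrb1b, an NKR-P1 receptor, stood at 7.06 ± 3.42 against 3.61 ± 1.33 CPM (0.97, SE 0.41, adjusted p = 0.758 by edgeR).

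Targets of interferon-gamma were on the side of the effector genes in one comparison with stress and not in the other two. At the low dose 16 of 23 were lower than under stress, with a median of -0.18 and 0 called. Of the 23 tested, 21 were lower under stress than in controls, with a median of -0.11, and 22 were higher at the high dose than under stress, with a median of 0.26, and 0 were called in either. All 3 comparisons share the stress libraries, where the list's score was 0.606, 0.061 and -1.16. Gbp2, a guanylate-binding protein induced by interferon-gamma, had 6407, 5776 and 9705 counts in controls, 7991, 5002 and 2045 under stress and 5759, 11664 and 4556 at the high dose. Stress replicate 3, the lowest library for Gzmb, Prf1 and Ifng, was also the lowest of all 12 for Gbp2. High dose replicate 2, the highest, held the second most Ifng, at 36 counts.

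The 8 genes outside the set whose log2 CPM was most like the mean profile of the 10, by Pearson's r over the 12 libraries, were Rgs8 (0.932), Zap70 (0.905), Rinl (0.901), Serpinb9 (0.894), Atp8b4 (0.890), Cst7 (0.888), Cd3g (0.888) and Il2rb (0.886). Zap70 and Cd3g belong to T cell receptor signalling, and Serpinb9 is the inhibitor with which cytotoxic cells protect themselves from granzyme B. Without stress replicates 1 and 3 the values fell to between 0.518 and 0.794. The 5 genes most like Hcst were others, Gm4788 (0.868), C87436 (0.861), Fbxw8 (0.859), Aspn (0.857) and Slc49a4 (0.856), none of them in any list of immune genes used here. Since these genes were picked for their likeness, the values are descriptions.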

How the data were processed

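Poly(A) RNA from bulk tumour tissue was sequenced as paired 150-base reads. Per the submitters' processing notes, cutadapt 1.9, HISAT2 2.0.4 and StringTie 1.3.4d were used with the GRCm38.p6 genome, and DESeq2 and edgeR are named without a version. The authors deposited 1 table per library with an estimated count, an FPKM value and a TPM value for each gene. The library kit marks strand, but whether counting used strand is not given in the sources used here. Between 11.7% and 12.5% of the deposited counts in a library were not whole and were rounded; those of the 10 genes were all whole. Deposited TPM values were used to compare genes with each other and, summed over a list, to describe libraries and groups. Deposited FPKM values were used only to work out the gene length behind them.

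Counts were tested in R 4.3.3 with edgeR 4.0.16: TMM factors, filterByExpr with a minimum count of 10, 1 model with 4 groups of 3 libraries and 8 residual degrees of freedom, the robust quasi-likelihood fit and Benjamini-Hochberg adjustment over 13453 genes. The script was tested on simulated data. Log2 CPM for scores and correlations used a prior count of 2. DESeq2 1.42.0, other scaling factors, no filter, only the 6 libraries compared, a replicate block, removal of a gene-length trend, leaving out each library and leaving out the 3 muscle-rich libraries were the alternatives.

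The 10 genes and all 17 gene lists were chosen with earlier results of these data known. No list was therefore tested for a difference between groups. The permutation tests related single genes to list scores or to Gzmf, and their p-values are descriptions for the same reason. Named are all 10 genes, from each list up to 3 genes with the smallest unadjusted p in a comparison, marker genes that stand beside a result, and the genes most like the set or like Hcst. Granzymes C and G, Cst7, Ccl3, Cx3cr1, Cd8b1, Tyrobp, Fas, Ptprc, Il15 and the low interleukins were named after their values were seen.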

Additional observations from a re-analysis of the deposited data

How the results depend on the processing

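No alternative called any of the 10 genes by edgeR or DESeq2. Over all genes, DESeq2 called 1 for stress against control, 95 for low dose against stress, 0 for high dose against stress and 5 for high dose against low dose, where edgeR called 0 in each. Leaving out 1 library gave 0 to 1244 genes for low dose against stress and 0 to 99 for high dose against low dose, the higher number in each case without low dose replicate 1. Klra4 and Cd244a were among the 1244. The causes of these differences in number were not tested.

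Of the 10 genes' 520 recomputed log2 fold changes, 457 kept their sign and 63 reversed, 48 of those when 1 library was left out. For stress against control, the ranges were -0.19 to 0.46 for Gzma, -0.14 to 0.73 for Nkg7, -0.14 to 0.83 for Klrk1, -0.31 to 0.74 for Klrd1, -0.44 to 0.32 for Ncr1 and -0.83 to 0.29 for Ifng. For low dose against stress they were -0.87 to 0.0065 for Gzma, -0.48 to 0.38 for Nkg7, -0.60 to 0.47 for Klrd1, -0.32 to 0.29 for Hcst, -1.16 to 0.21 for Fasl and -0.33 to 0.77 for Ifng. For high dose against stress they were -0.16 to 0.49 for Gzma, -0.52 to 0.34 for Nkg7, -0.73 to 0.23 for Klrk1, -0.37 to 0.67 for Klrd1, -0.53 to 0.41 for Ncr1, -1.16 to 0.28 for Fasl and -0.33 to 0.93 for Ifng. For high dose against low dose they were -0.073 to 0.44 for Gzmb, -0.43 to 0.073 for Prf1, -0.37 to 0.19 for Nkg7, -0.046 to 0.58 for Klrd1, -0.34 to 0.40 for Fasl and -0.34 to 0.45 for Ifng. Stress replicate 1 was the library most often behind a change of sign in the comparisons with stress.

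Without the 3 muscle-rich libraries, stress against control was -0.045 for Ncr1 and 0.11 for Ifng, and low dose against stress 0.025 for Klrd1 and 0.29 for Hcst. In the same setting high dose against stress was -0.16 for Gzma, 0.052 for Klrd1, 0.066 for Ncr1 and -0.33 for Ifng, and high dose against low dose was -0.44 for Ifng. Hcst for low dose against stress was 0.0049 by DESeq2, 0.0048 with its scaling factors in edgeR and 0.0024 with no filter. Removing the gene-length trend gave -0.12 for Ifng in low dose against stress and 0.11 for Nkg7 in high dose against low dose. All of these were smaller than their standard errors in the main analysis, and the causes were not tested.

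The labels do not say whether same-numbered replicates were paired. For replicates 1, 2 and 3, the correlation of their deviations from the group means was 0.392, 0.0676 and -0.058 for stress and control. For high and low dose it was 0.415, -0.272 and -0.344. Of 12 libraries, 5 correlated best with their own number, and these values do not settle whether replicates were paired. With the replicate number as a block, 0 genes were called in each comparison, the 10 genes' median for stress against control was 0.26, and Klrd1 for high dose against stress turned to 0.13.

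Hcst, Fasl, Ncr1 and Ifng had only 3 to 66 counts per library. Groups of 3 libraries and the spread of the stress group, 89.1% for Fasl and 73% for Ifng as coefficients of variation, also limit what can be detected.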

Other observations

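Among chemokines of cytotoxic cells and their receptors 0 were called. Of 8 tested, 6 were higher under stress than in controls (median log2 fold change 0.10) and 5 lower at the low dose than under stress (median -0.48). Ccl5, a chemokine that activated T and NK cells secrete, had 76, 78 and 91 counts in controls and 167, 110 and 55 under stress. Cxcr6, a receptor of tissue-resident lymphocytes, had 57, 51 and 61 counts in controls and 162, 74 and 36 under stress. Other members of the list were more even, with Ccl3 at 1.68 ± 0.268 CPM and Cx3cr1 at 35.8 ± 6.1 CPM under stress (SD, n = 3 each). The list's score was 0.716, 0.189 and -0.554 in stress replicates 1, 2 and 3.

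Dendritic cell markers, cells that prime cytotoxic T cells, followed another order. All 9 tested were lower at the low dose than under stress (median -1.38), where 50.1% of all genes were lower. At an unadjusted p under 0.05 there were 7 of the 9, a level reached by 13.4% of all genes and by 0 of the 10 effector genes, and 0 were called by edgeR. Xcr1, the receptor for the chemokine Xcl1 on cross-presenting dendritic cells, had 33, 25 and 29 counts under stress and 23, 4 and 4 at the low dose. Stress replicate 3, lowest for most effector genes, scored 0.460 for dendritic cells, above stress replicate 2 at 0.211.

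Other cell types gave further values for stress against control, with 0 genes called in any. Macrophage markers were higher in 13 of 14 (median 0.27), where 51.7% of all genes were higher. Mast cell markers were higher in 5 of 5 (median 2.02), with Cpa3 at 91 counts in stress replicate 3 and 53 in high dose replicate 1 against 2 to 21 elsewhere. Skeletal muscle markers were lower in 20 of 20 (median -2.28), but the groups overlapped. Their scores in replicates 1, 2 and 3 were 3.39, -1.6 and 0.222 in controls and 1.03, -2.11 and -1.93 under stress. Control replicate 1 thus stood far above the other control and stress libraries. Only 3 of 10 neutrophil and 3 of 8 B cell markers were abundant enough to test, and Ly6g had at most 1 count in any library.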
